A study of Mus musculus with 11 samples.

Results

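TRIM proteins, named for their tripartite motif of a RING finger, B-boxes and a coiled coil, form one of the largest families of RING-type E3 ubiquitin ligases, the enzymes that choose which protein is tagged with ubiquitin. A search for protein-coding genes whose symbol is Trim followed by a digit found 68 members among the 55487 genes quantified in sorted mouse beta cells. Of these, 38 had enough counts to be tested, among 16252 genes tested in all. A further 19 members had some counts but too few for the test, at most 77 over all libraries together, and 11 had no count in any library.

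RNA-seq was measured in 11 libraries of FACS-sorted beta cells from islets of C57BL/6JRj male mice, aged 12 weeks. The 4 PD-L1high and the 3 PD-L1low libraries hold beta cells of islets kept for 20 h with 50 pg/mL of IFNγ and separated by how much PD-L1, the ligand of the T cell checkpoint protein PD-1, they carried on their surface. The 4 control libraries hold beta cells of islets cultured without IFNγ. All 3 groups are of this strain and were gated on EpCam, low CD24 and CD71, and replicate numbers run over 1 to 4 without a PD-L1low library for number 1. The study's methods give each replicate as an independent biological sample. PD-L1high and PD-L1low cells are fractions of the same treated islets, so the dose added to the medium was the same for both. The dose that reached each cell was not measured here.

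IFNγ acts through JAK kinases and on promoters with GAS elements, among them that of IRF1, and IRF proteins in turn bind ISRE elements. Many TRIM genes are targets of interferons, and their products act in antiviral defence, either by binding viral particles or by tuning RNA and DNA sensors such as RIG-I and cGAS. Other TRIM proteins work on chromatin, microtubules or membranes and are not known mainly as interferon targets. The members were therefore grouped, from general knowledge, into an interferon-linked group of 17 genes and 6 groups by domain.

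The libraries hold between 10422038 and 15810817 counts, and mitochondrial genes take between 5.54% and 13.3% of them, with the highest share in control replicate 1. The beta cell markers were abundant in every library. The summed level of the 5 macrophage markers was 2.70 to 4.76 CPM (a gene's counts scaled to the library's size) in PD-L1high, 2.15 to 4.73 CPM in PD-L1low and 2.42 to 4.21 CPM in control libraries, with *Adgre1* and *Lyz2* at 0 in every library. The 3 lymphocyte markers summed to at most 1.03 CPM in PD-L1high, 0.828 CPM in PD-L1low and 1.24 CPM in control libraries, all of it from *Cd79a*, with *Cd3e* and *Nkg7* at 0. The macrophage sums are above the group means of *Trim30a* and *Trim5* in CPM, and the part of immune cells in these was not tested. Alpha cell markers were not absent: the 5 alpha cell markers summed to 561 to 1483 CPM in PD-L1high, 349 to 353 CPM in PD-L1low and 323 to 1387 CPM in control libraries. The 3 duct markers summed to 105 to 467 CPM, 208 to 228 CPM and 126 to 208 CPM in the same groups. Most of this came from *Spp1*, which was highest in PD-L1high replicate 1 at 7233 counts. The part of duct cells in the TRIM values was not tested. The sort itself was visible in *Cd274*, which encodes PD-L1 and averaged 218 CPM in PD-L1high, 38.1 CPM in PD-L1low and 20.4 CPM in control libraries.

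The 3 TRIM genes that changed, *Trim21*, *Trim34a* and *Trim12c*, lie on chromosome 7, as do 16 of the 68 members. *Trim34a* and *Trim12c* are in a cluster of 10 members between *Trim6* and *Trim30d*, which spans chr7:104218793-104507849 (289 kb, GRCm38) and of which 5 members were tested. *Trim21* lies outside this cluster, at 102557921-102565486 on the minus strand of the same chromosome. The member *Trim68* is near it, at 102677582-102687327. The bases around their transcription starts are shown because all of them hold an ISRE-type motif within 50 bases of the start, together with those of *Trim12a* and *Trim5*, relatives of *Trim12c* with the same motif. Each line runs 5′ to 3′ on the gene's strand, from 100 bases before the start to 50 after it (RefSeq, GRCm38.p6), and capitals mark the motif (TTTC, any 2 bases, TTTC) or, in *Trim21*, its reverse complement.
Trim21, chr7:102565433-102565582, minus strand: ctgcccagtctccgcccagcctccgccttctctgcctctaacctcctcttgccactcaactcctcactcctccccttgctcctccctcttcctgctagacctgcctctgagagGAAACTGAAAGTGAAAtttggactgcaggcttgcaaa
Trim34a, chr7:104244357-104244506, plus strand: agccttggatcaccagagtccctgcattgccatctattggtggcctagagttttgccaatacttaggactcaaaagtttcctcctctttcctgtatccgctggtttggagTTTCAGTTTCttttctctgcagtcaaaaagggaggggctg
Trim12c, chr7:104353300-104353449, minus strand: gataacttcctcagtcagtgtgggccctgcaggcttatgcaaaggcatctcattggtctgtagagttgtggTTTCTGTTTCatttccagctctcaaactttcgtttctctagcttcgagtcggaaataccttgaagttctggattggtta
Trim12a, chr7:104315446-104315595, minus strand: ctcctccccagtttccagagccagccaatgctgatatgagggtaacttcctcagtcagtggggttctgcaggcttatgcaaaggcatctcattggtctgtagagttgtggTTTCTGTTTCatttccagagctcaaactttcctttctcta
Trim5, chr7:104288057-104288206, minus strand: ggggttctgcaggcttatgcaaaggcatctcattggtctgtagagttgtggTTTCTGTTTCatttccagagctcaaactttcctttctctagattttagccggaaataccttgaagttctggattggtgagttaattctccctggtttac
The capitals of *Trim21* cover a pair of overlapping matches. In *Trim12c*, *Trim12a* and *Trim5* the same bases, TTTCTGTTTC, carry the match. The 300-base windows of *Trim12a* and *Trim5* align over 241 bases with 100% identity, as their starts are annotated at different points of a shared stretch, while *Trim12c* and *Trim12a* are identical at 72.3% of 260 aligned bases.

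Over the whole family, 53 of the 68 members have a promoter window (250 bases before to 50 after the start). Of these members, 9 hold the ISRE-type motif on either strand of a window: *Trim2*, *Trim5*, *Trim12a*, *Trim12c*, *Trim21*, *Trim26*, *Trim30a*, *Trim30d* and *Trim34a*. Of all 32851 windows in the table, 3.44% hold it. A member can have several windows, as *Trim30a* does, so counts of members and shares of windows are unlike units. The GAS-type motif TTCNNNGAA stands in 6 members (*Trim15*, *Trim30c*, *Trim31*, *Trim38*, *Trim45* and *Trim46*) and in 8.30% of all windows, and none of the 3 genes that changed has it there. Motif matches were read from sequence alone, and binding was not measured.

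*Trim44* was the most abundant member, with a mean of 67.2 TPM, a level per transcript length that allows genes to be compared, over the 11 libraries. It encodes a family member without a RING domain. *Trim28*, which encodes KAP1, the corepressor that KRAB zinc finger proteins recruit to silence retroelements, followed at 55.6 TPM. *Trim35* had 45.8 TPM, *Trim33*, a chromatin reader of the TIF1 type, 26.8 TPM, and *Trim37*, which acts at centrosomes and peroxisomes, 22.4 TPM. *Trim44* ranged over 69.6 to 79.6 TPM in PD-L1high, 56.5 to 59.9 TPM in PD-L1low and 53.2 to 79.1 TPM in control libraries. In CPM, the scale of the tests, its PD-L1high and PD-L1low libraries overlapped, at 265 to 276 and 265 to 285.

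Interferon-linked genes ran over all but the highest levels. *Trim25*, *Trim26* and *Trim56* had means of 19.3, 15.5 and 14.9 TPM, *Trim21* had 8.49 TPM, *Trim34a* 5.44 TPM, *Trim12c* 4.85 TPM and *Trim14* 4.33 TPM, whereas *Trim12a* had 2.51 TPM, *Trim30a* 0.35 TPM and *Trim5*, the lowest of the 38, 0.29 TPM. In all, 14 tested members had a mean of at least 10 TPM and 7 a mean under 1 TPM. Among the members never counted were the muscle genes *Trim54*, *Trim55* and *Trim63*. *Trim30a* and *Trim5* reached the count filter only through the PD-L1high libraries, and *Trim43c* only through the control libraries.

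**Figure D1:**
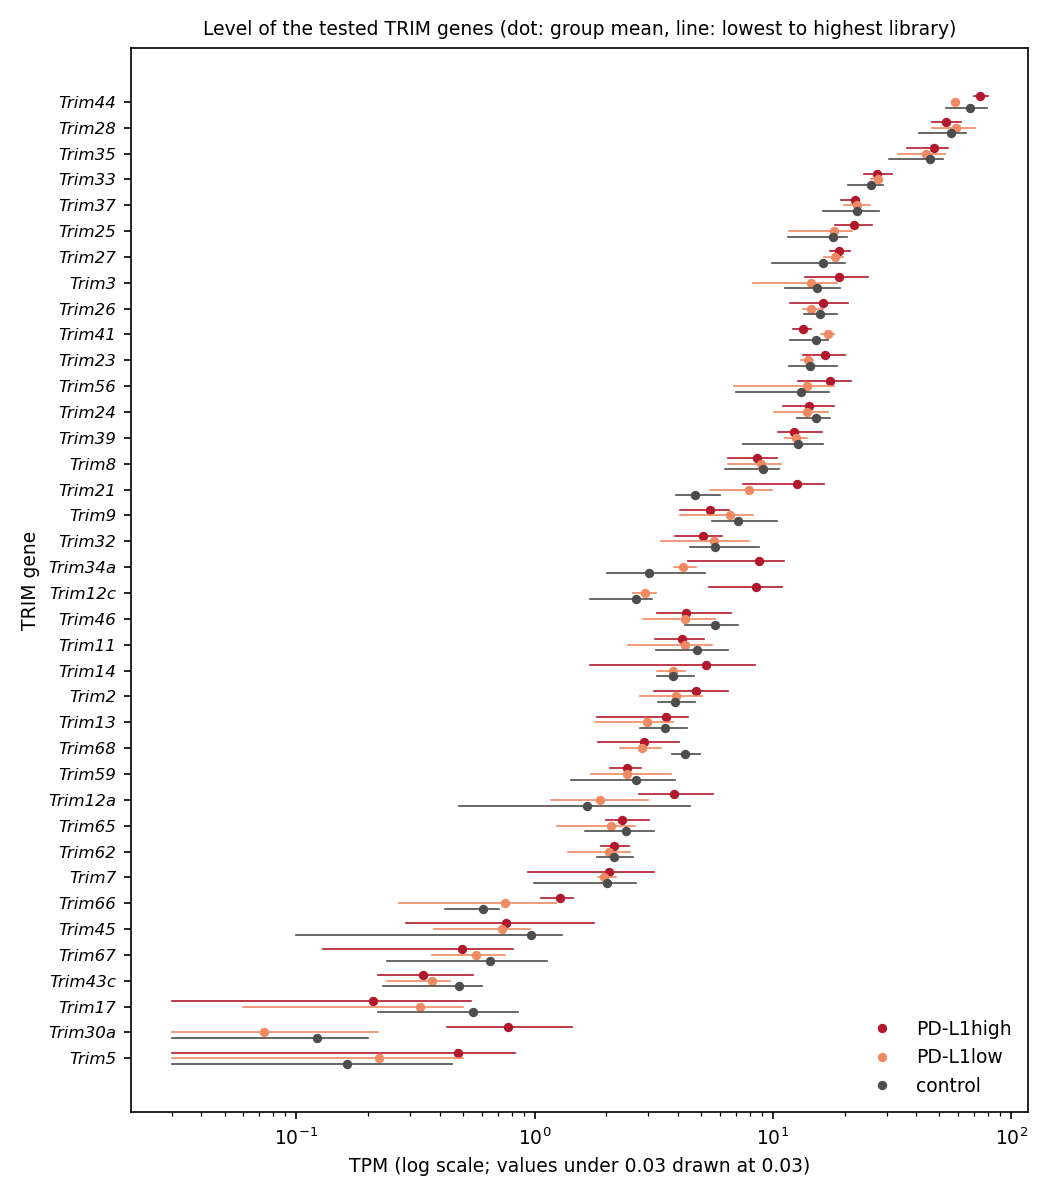
Level in TPM (log axis) of the 38 tested TRIM genes, ordered by their mean over the 11 libraries; dots are the means of the PD-L1high, PD-L1low and control groups, lines run over the lowest to the highest library, and values near 0 are drawn at the left end. *Trim44* is at the top with a mean of 67.2 TPM and *Trim5* at the bottom with 0.29 TPM, and the 3 genes that changed have means between 4.85 and 8.49 TPM.

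Which TRIM genes respond in the beta cells that carried much PD-L1 was asked by setting PD-L1high against control libraries. *Trim21*, *Trim34a* and *Trim12c* rose in PD-L1high cells, by 2.52- to 2.94-fold. No member fell, by edgeR, limma-voom or DESeq2. These 3 are 7.89% of the 38 tested members, beside 0.941% of all tested genes called higher in this comparison and 0.0492% called lower (edgeR quasi-likelihood test, adjusted p under 0.05 over all 16252 genes). All 3 belong to the interferon-linked group, of which 10 members were tested. *Trim30a* and *Trim5* reached the count filter only through the PD-L1high libraries. They are left out of the medians and of the counts at the unadjusted threshold or of groups that do not overlap. *Trim43c*, which reached the filter only through the control libraries, is kept. High control values were thus a condition of its being tested. The medians, ranges and counts here and below that hold it carry this limit. The other 8 interferon-linked genes tested had log2 fold changes of 0.01 to 1.56 with a median of 0.83. The median was -0.04 over the 36 members without *Trim30a* and *Trim5*, and -0.02 over all tested genes. Of the PP cell markers *Ppy* and *Pyy*, 1 was also called higher in this comparison, and its part in the TRIM differences was not tested.

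*Trim21* encodes a cytosolic receptor for the Fc part of antibodies, which sends antibody-coated virus to the proteasome. Its level was 24.6, 31.6, 31.5 and 19.6 CPM in PD-L1high replicates 1 to 4, 17.7, 14.9 and 17.8 CPM in PD-L1low replicates 2 to 4, and 13.3, 10.3, 9.36 and 9.58 CPM in control replicates 1 to 4. The 3 groups did not overlap, with PD-L1high libraries highest, control libraries lowest and PD-L1low libraries between them. The log2 fold change of PD-L1high over control was 1.33 (SE 0.19, edgeR adjusted p = 9.5e-04), a fold of 2.52.

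*Trim12c* is one of the mouse genes related to human *TRIM5*, whose product binds and blocks retroviral capsids. It had 33.5, 32.2, 29.6 and 22.2 CPM in PD-L1high libraries, 10.02, 11.02 and 11.02 CPM in PD-L1low libraries, and 14.9, 9.97, 10.1 and 6.00 CPM in control libraries. Every PD-L1high library lay above all others, while PD-L1low and control libraries overlapped. PD-L1high over control was 1.56 on the log2 scale (SE 0.18, edgeR adjusted p = 1.6e-04), the largest fold of the 3 genes at 2.94.

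*Trim34a* is a mouse counterpart of human *TRIM34*, which works with TRIM5 against some retroviruses in human cells. Its level was 22.9, 21.7, 24.5 and 12.05 CPM in PD-L1high, 11.1, 9.10 and 11.6 CPM in PD-L1low, and 16.6, 5.92, 4.95 and 4.75 CPM in control libraries. Control replicate 1 stood far above the other 3 controls and above PD-L1high replicate 4, so these 2 groups overlapped. The log2 fold change of PD-L1high over control was 1.504 (SE 0.28, edgeR adjusted p = 0.011). Of the 3 calls this was the least firm: edgeR gave an adjusted p of 0.23 without replicate number in the model, and 0.078 without PD-L1high replicate 2, 0.073 without PD-L1high replicate 3, 0.119 without control replicate 3 and 0.089 without control replicate 4.

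**Figure D2:**
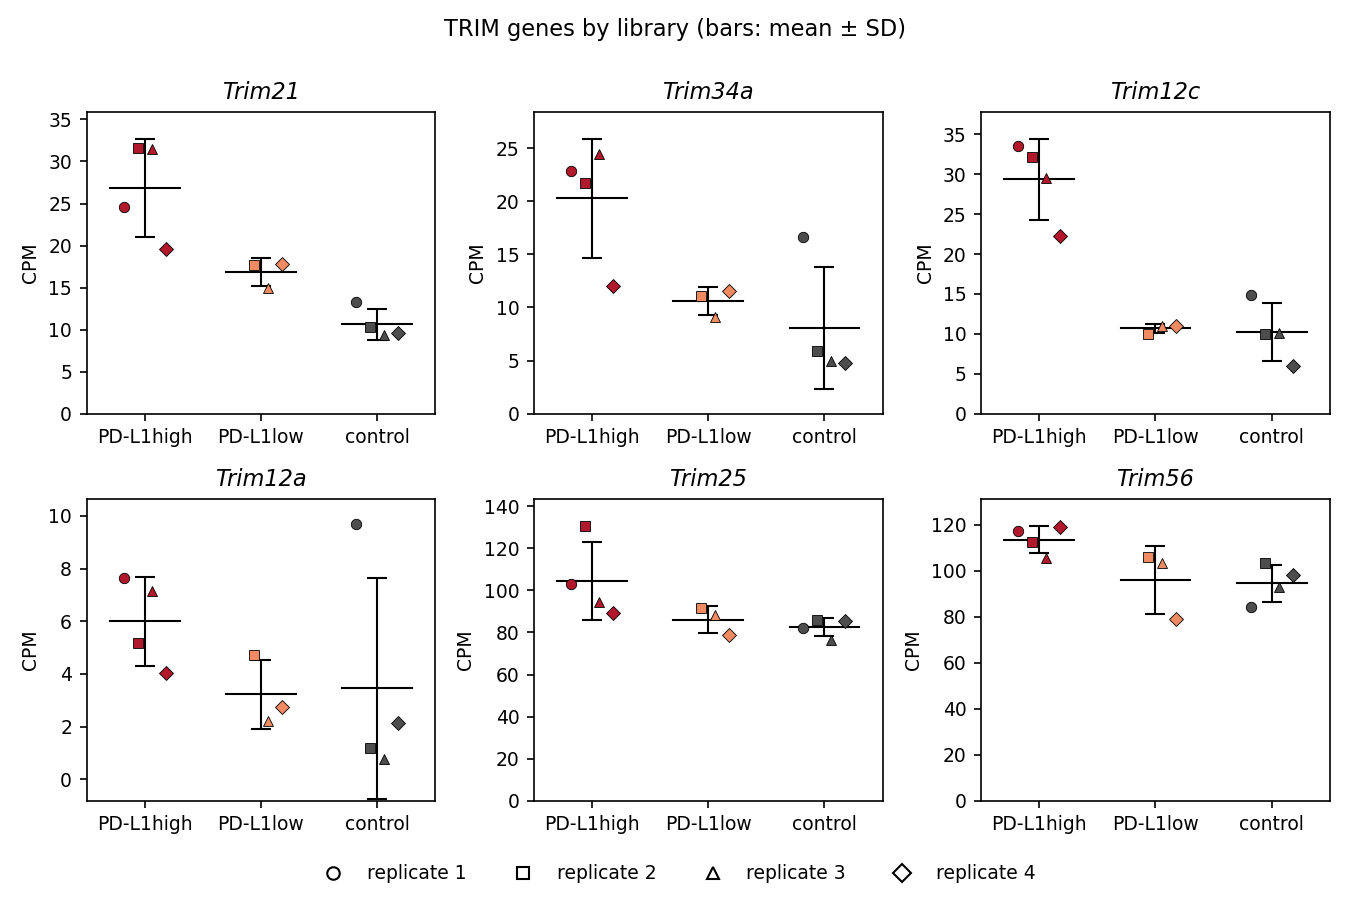
CPM of 6 interferon-linked TRIM genes in each library, in PD-L1high, PD-L1low and control groups; points are libraries with a shape for each replicate number, and bars are the mean and SD of 4, 3 and 4 libraries. *Trim12c* in the PD-L1high libraries (22.2 to 33.5 CPM) lies above every PD-L1low library (10.02 to 11.02 CPM), and control replicate 1 is the highest control for *Trim34a* (16.6 CPM) and *Trim12a* (9.70 CPM).

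Control replicate 1 was the highest of the 4 controls for all 3 genes, as it was for 16 of the 38 tested members (42.1%) and for 38.1% of all tested genes. Of the partner and related genes described below, it was the highest control for *Ddx58*, *Ifih1*, *Dhx58*, *Irf7*, *Ube2l6*, *Irf1* and *Cd274*, and the lowest for *Pml*. *Irf7* had 24.1 CPM in it, against 8.33 to 10.05 CPM in the other controls. Without that library all 3 calls stood, with log2 fold changes of PD-L1high over control of 1.49 for *Trim21*, 1.88 for *Trim34a* and 1.69 for *Trim12c* (edgeR adjusted p = 7.3e-04, 8.3e-04 and 1.9e-04). What sets this library apart was not tested.

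Reads of near-identical copies limit how far the cluster genes can be told apart. Of the 75-base stretches of the transcripts of *Trim34a*, 29.5% also occur in *Trim34b*, which received 5 counts in all, and 16.9% of those of *Trim12c* occur in another gene, most of them in *Trim5*. *Trim21* shares none. With the counts of *Trim34a* and *Trim34b* summed, PD-L1high over control was 1.51 on the log2 scale (edgeR adjusted p = 0.0105), and with *Trim12a*, *Trim12c* and *Trim5* summed it was 1.47 (SE 0.20, edgeR adjusted p = 7.0e-04). *Trim34a* also overlaps an antisense gene, Gm47248, with 167 counts beside its own 1905. The libraries were stranded, but whether the counting used the strand is not given in the sources used here.

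The other 7 tested interferon-linked genes did not pass the test. *Trim25*, which adds ubiquitin in the RIG-I pathway, had 103, 131, 94.7 and 89.2 CPM in PD-L1high libraries and 76.6 to 85.8 CPM in control libraries, a log2 fold change of 0.33 (SE 0.11, unadjusted p = 0.0098, edgeR adjusted p = 0.39). Although these groups did not overlap, the difference was far smaller than that of *Trim21*. *Trim56*, linked to the DNA-sensing STING pathway, gave 106 to 119 CPM in PD-L1high and 84.2 to 103 CPM in control libraries, a log2 fold change of 0.27 (edgeR adjusted p = 0.60).

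*Trim26* and *Trim14* had smaller fitted changes, with a wide interval for the low-count *Trim14*. *Trim26* had 37.3 to 45.4 CPM in PD-L1high and 34.3 to 39.1 CPM in control libraries, a log2 fold change of 0.19 with a 95% interval of -0.07 to 0.45. *Trim14*, which lacks a RING and acts as an adaptor at mitochondria, had 2.49 to 6.70 CPM and 3.82 to 6.67 CPM in the same groups, with a log2 fold change of 0.01 and an interval of -0.67 to 0.69.

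The low genes of the cluster had fitted changes as large as those of the called genes, with wide errors. Of these, *Trim30a* and *Trim5* reached the count filter only through the PD-L1high libraries. High values there were thus a condition of their being tested. *Trim12a* had 7.66, 5.17, 7.15 and 4.05 CPM in PD-L1high libraries, 4.72, 2.22 and 2.74 CPM in PD-L1low libraries, and 9.70, 1.20, 0.785 and 2.15 CPM in control libraries. Its PD-L1high libraries lay above every control but replicate 1, and its log2 fold change of PD-L1high over control was 1.40 (95% interval 0.31 to 2.48, edgeR adjusted p = 0.47). *Trim30a*, which dampens inflammatory signalling in mouse macrophages, had 2.12, 1.43, 1.73 and 0.935 CPM in PD-L1high libraries, 0, 0.666 and 0 CPM in PD-L1low libraries, and 0.853, 0, 0.362 and 0.717 CPM in control libraries. All 4 PD-L1high libraries lay above the other 7, but the counts are 33, 18, 22 and 9 against at most 11, and the log2 fold change of 1.95 over control had an interval of -0.35 to 4.26. For *Trim5* it was 1.72, with an interval of -0.83 to 4.27. With 1 library left out at a time, these log2 fold changes ran over 0.90 to 2.05 for *Trim12a*, 1.18 to 2.91 for *Trim30a* and 0.64 to 2.59 for *Trim5*, and none passed the test.

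By sequence, 8 tested members have the ISRE-type motif, among them the 3 called genes. Without *Trim30a* and *Trim5*, the other 6 had log2 fold changes of PD-L1high over control from 0.14 to 1.56 with a median of 1.36. The 21 tested members whose window lacks the motif ranged over -0.54 to 0.94 with a median of -0.09. By edgeR 0 of them were called, beside 0.941% of all tested genes called higher and 0.0492% called lower. *Trim25* and *Trim56* are among those 21. *Trim26* and *Trim2* have the motif and log2 fold changes of 0.19 and 0.14. A further 9 tested members, *Trim14* among them, have no window and ranged over -2.05 to 0.01 with a median of -0.11.

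**Figure D3:**
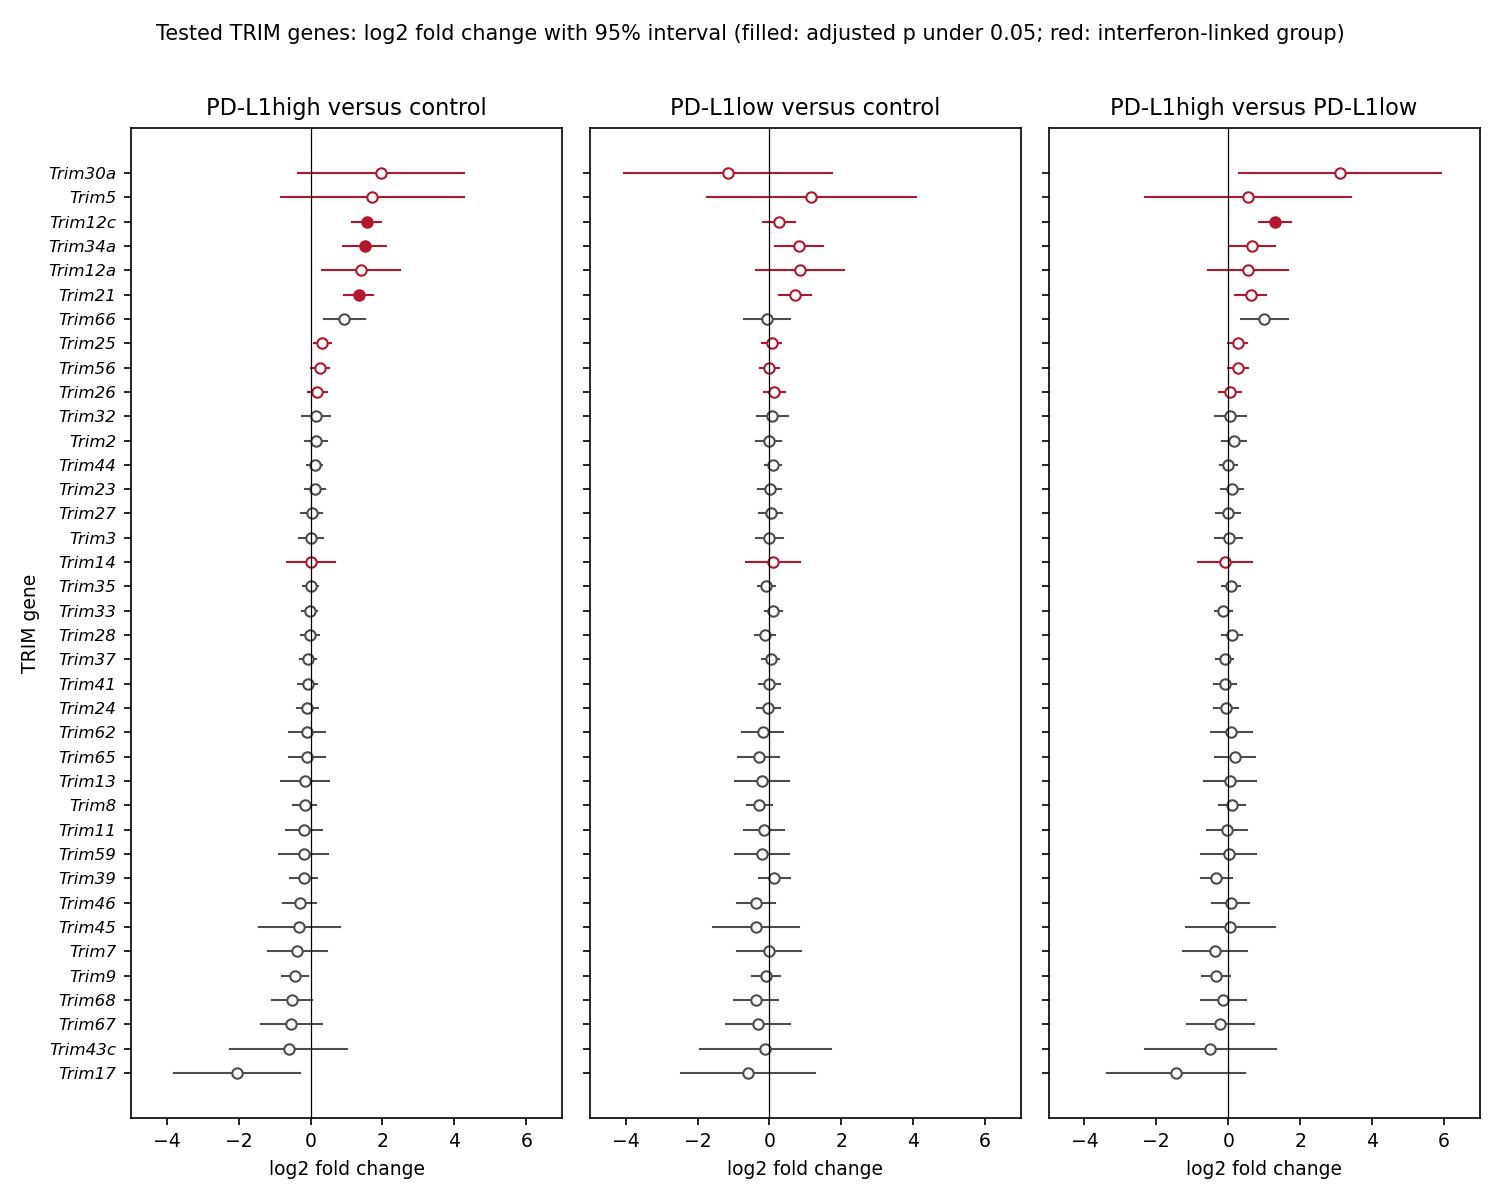
Log2 fold changes with 95% intervals of the 38 tested TRIM genes in PD-L1high versus control, PD-L1low versus control and PD-L1high versus PD-L1low; filled points passed the test and interferon-linked genes are red. The filled points are *Trim21*, *Trim34a* and *Trim12c* in PD-L1high versus control and *Trim12c* alone in PD-L1high versus PD-L1low.

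Outside the interferon-linked group, 28 of 51 members were tested. In PD-L1high versus control 0 were called, beside 0.941% of all tested genes called higher and 0.0492% called lower by edgeR. By limma-voom and DESeq2, 0 of the 28 were called too. At the unadjusted threshold of 0.05, edgeR had 1 higher and 2 lower genes, beside 4.13% and 3.52% of all tested genes, and for 21 of the 28 the 95% interval lay within 1 log2 unit of no change. *Trim66*, a testis-enriched relative of *Trim28* with a PHD finger and bromodomain, had the highest fold change of the 28. It had 9.59, 12.2, 9.83 and 8.31 CPM in PD-L1high libraries, 6.79, 7.25 and 2.39 CPM in PD-L1low libraries, and 4.42, 6.30, 5.80 and 4.48 CPM in control libraries. Its PD-L1high libraries were above all others, yet the log2 fold change of 0.94 (SE 0.27, unadjusted p = 0.0034) did not pass (edgeR adjusted p = 0.21).

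The lower genes at that unadjusted threshold were *Trim9* and *Trim17*. *Trim9*, a ligase of neurons that acts in netrin signalling, had 13.7 to 21.0 CPM in PD-L1high and 20.6 to 36.8 CPM in control libraries, a log2 fold change of -0.43 (edgeR adjusted p = 0.51). *Trim17* was near the detection limit, with 1.61, 0.477, 0.550 and 0 CPM in PD-L1high libraries and 3.96, 0.750, 1.75 and 2.15 CPM in control libraries, and its log2 fold change was -2.05 (95% interval -3.81 to -0.30, edgeR adjusted p = 0.54), or -2.47 to -1.33 with 1 library left out at a time.

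The abundant members set narrow limits on any response. Log2 fold changes of PD-L1high over control were 0.11 for *Trim44* (95% interval -0.09 to 0.32), -0.03 for *Trim28* (-0.28 to 0.23), 0.00 for *Trim35* (-0.22 to 0.22), -0.02 for *Trim33* (-0.23 to 0.19) and -0.06 for *Trim37* (-0.28 to 0.15). By domain group, the leading genes had small fold changes: *Trim8*, a regulator of cytokine signalling through SOCS1, was at -0.17, the ARF-type GTPase *Trim23* at 0.11, *Trim27* at 0.03, *Trim46*, which bundles axonal microtubules, at -0.30, and the NHL-repeat genes *Trim3* and *Trim32* at 0.01 and 0.15. None of these 11 genes passed the test. Over the 36 members, 6 were higher and 1 (*Trim68*) was lower in every PD-L1high than in every control library, beside 2.68% and 1.61% of all tested genes.

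PD-L1low against control libraries asked whether TRIM genes also respond in treated cells that stayed low in PD-L1. No member was called in either direction, by edgeR, DESeq2 or limma-voom, beside 0.0615% of all tested genes called higher and 0.0185% called lower by edgeR. At an unadjusted p under 0.05, 2 members were higher and 0 lower, beside 0.991% and 1.11% of all tested genes. They were *Trim21*, with a log2 fold change of 0.71 (95% interval 0.26 to 1.16, unadjusted p = 0.0043), and *Trim34a*, with 0.83 (0.17 to 1.502, unadjusted p = 0.018). Both had an edgeR adjusted p of 0.9998. In CPM, every PD-L1low library of *Trim21* and *Trim44* was above every control library, and of *Trim68* below, beside 1.28% and 1.43% of all tested genes. For *Trim44* the margin was narrow, 265.37 against 264.97 CPM, and in TPM these groups overlapped. *Trim12c* had a log2 fold change of 0.26 (-0.19 to 0.71), and the summed *Trim12a*, *Trim12c* and *Trim5* counts 0.39 (edgeR adjusted p = 0.9998).

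Among the 28 members outside the interferon-linked group the log2 fold changes of PD-L1low over control ran from -0.60 to 0.14. *Trim28* was at -0.13, *Trim44* at 0.11 and *Trim66* at -0.07. *Trim25* and *Trim56* had 0.06 and 0.00. The median was 0.20 over the 8 interferon-linked genes, -0.01 over the 36 members and 0.00 over all tested genes. PP, alpha and delta cell markers moved in this comparison too: edgeR called *Ppy* and *Pyy* lower in PD-L1low, and DESeq2 called *Gcg*, *Ttr*, *Sst*, *Ppy* and *Pyy* lower. Their part in the TRIM values was not tested. In these cells *Cd274* was itself higher than in control cells, by 0.94 on the log2 scale (edgeR adjusted p = 0.039).

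PD-L1high against PD-L1low libraries compared the 2 fractions of treated islets, with no PD-L1low library beside PD-L1high replicate 1. That same-numbered libraries are pairs is not established. *Trim12c* rose in PD-L1high cells by 1.30 on the log2 scale (SE 0.21, edgeR adjusted p = 0.0044), a fold of 2.46, and was the 1 member called, beside 0.64% of all tested genes called higher. No member was lower by edgeR, limma-voom or DESeq2, beside 0.0923% of all tested genes. The *Trim12c* call was lost without PD-L1low replicate 3 (log2 fold change 1.24, edgeR adjusted p = 0.060). With *Trim12a*, *Trim12c* and *Trim5* summed, the log2 fold change was 1.08 (edgeR adjusted p = 0.036).

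At an unadjusted p under 0.05, 5 of the 36 members were higher in PD-L1high than in PD-L1low cells and 0 lower, beside 4.24% and 4.28% of all tested genes. Besides *Trim12c* they were *Trim21* at 0.62 on the log2 scale, *Trim66* at 1.00, *Trim34a* at 0.67 and *Trim25* at 0.27, with edgeR adjusted p of 0.28 to 0.58. *Trim30a*, left out of this count, had a log2 fold change of 3.11 (edgeR adjusted p = 0.54), which ran over 2.25 to 7.15 with 1 library left out at a time. In 4 of the 36 members every PD-L1high library was above every PD-L1low library, beside 4.41% of all tested genes, and in 0 members below, beside 3.59%. Markers of the other endocrine cells moved with this comparison: of the tested ones edgeR called 2 of 2 PP markers, 1 of 5 alpha markers (*Gcg*) and 1 of 1 delta marker (*Sst*) higher in PD-L1high. *Ppy* and *Pyy* summed to 233 to 562 CPM in PD-L1high, 26.8 to 33.5 CPM in PD-L1low and 149.8 to 382 CPM in control libraries, and the 2 delta markers *Sst* and *Hhex* to 6.68 to 33.9, 2.04 to 7.12 and 3.502 to 24.6 CPM in these groups. Their part in the *Trim12c* difference was not tested. The comparison shares its PD-L1high libraries with the one against control.

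Genes that act with TRIM proteins were read from the same fit. Of 11 genes of the RIG-I pathway 4 rose in PD-L1high cells against control and 0 fell, beside 0.941% and 0.0492% of all tested genes. The 4 were the RNA sensors *Ddx58* (RIG-I), *Ifih1* (MDA5) and *Dhx58* (LGP2) and the transcription factor *Irf7*. *Ddx58* had 126, 117, 95.4 and 77.7 CPM in PD-L1high, 60.5, 51.5 and 40.4 CPM in PD-L1low, and 65.9, 41.2, 33.6 and 40.2 CPM in control libraries. PD-L1high over control was 1.22 for *Ddx58*, 1.16 for *Ifih1*, 1.79 for *Dhx58* and 1.76 for *Irf7* on the log2 scale (edgeR adjusted p at most 0.0046). All 4 also rose against PD-L1low cells, by 0.88, 0.75, 1.58 and 2.10 (edgeR adjusted p at most 0.038). Of all tested genes 0.64% were called higher there. In PD-L1low against control 0 of the 11 passed, by DESeq2 and limma-voom too, beside 0.0615% of all tested genes called higher and 0.0185% lower by edgeR. At an unadjusted p under 0.05 there were 2, beside 0.991% of all tested genes higher and 1.11% lower. The ligase *Trim25* of the same pathway was at 0.33 in the comparison with control where *Ddx58* was at 1.22.

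RING ligases receive ubiquitin from E2 enzymes, of which 11 were tested. Of these, *Ube2l6*, the E2 for the ubiquitin-like protein ISG15, rose, with 58.3 to 78.5 CPM in PD-L1high, 13.8 to 18.5 CPM in PD-L1low and 6.94 to 12.9 CPM in control libraries. Its log2 fold change was 2.72 against control (edgeR adjusted p = 3.2e-07) and 2.04 against PD-L1low (edgeR adjusted p = 5.5e-05), above that of every called TRIM gene. Of all tested genes 0.941% and 0.64% were called higher in these comparisons. The 6 tested partners of KAP1 in silencing were called 0 times over the 3 comparisons, by limma-voom and DESeq2 as by edgeR, and 0 times at an unadjusted edgeR p under 0.05. Of all tested genes, edgeR called at most 0.941% in any direction and comparison, and at most 4.28% passed the unadjusted threshold. So 0 of 6 is near these shares.

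*Pml*, also known as TRIM19, organizes nuclear bodies and is a TRIM protein under another symbol. It had 46.2, 48.5, 44.1 and 35.8 CPM in PD-L1high, 40.7, 40.0 and 29.6 CPM in PD-L1low, and 30.9, 34.8, 38.2 and 36.8 CPM in control libraries. These groups overlapped, and the log2 fold change of PD-L1high over control was 0.31 (SE 0.13, unadjusted p = 0.036, edgeR adjusted p = 0.60), near that of *Trim25*. *Irf1*, an early target of IFNγ, rose by 1.80 against control and by 1.17 against PD-L1low (edgeR adjusted p = 7.2e-07 and 4.5e-04). *Cd274*, whose protein was the sort marker, was higher in PD-L1high cells by 3.42 against control and by 2.48 against PD-L1low, more than any TRIM gene called.

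**Figure D4:**
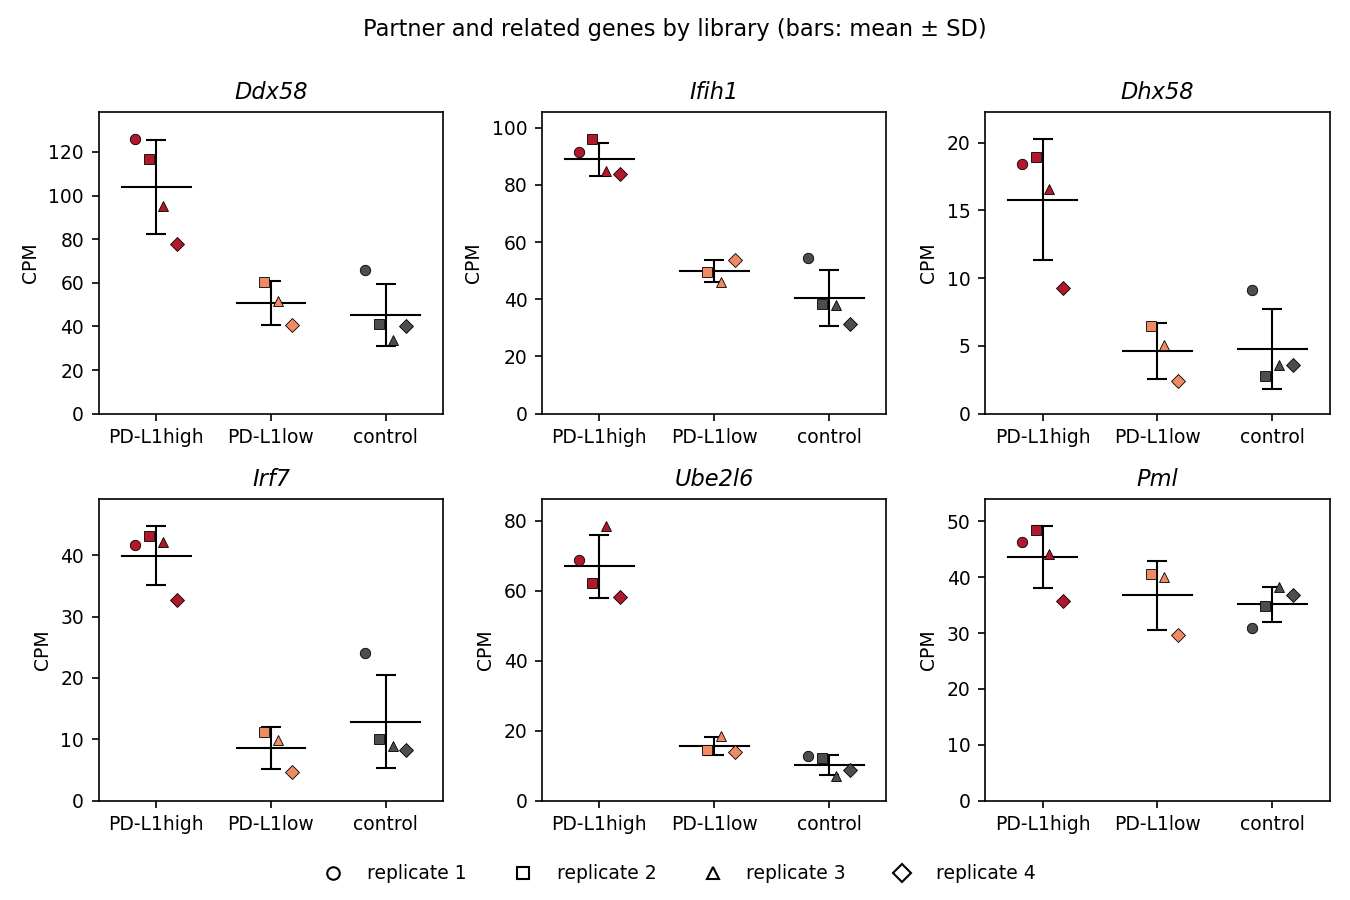
CPM by library of *Ddx58*, *Ifih1*, *Dhx58*, *Irf7*, *Ube2l6* and *Pml* in PD-L1high, PD-L1low and control groups, drawn as points with a shape for each replicate number and bars for the mean and SD. *Ube2l6* is highest in all 4 PD-L1high libraries (58.3 to 78.5 CPM), while the *Pml* groups overlap.

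These are bulk libraries, so a lower level in a sorted fraction cannot be told apart from fewer responding cells in it.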

How the data were processed

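RNA of the 11 sorted samples was made into stranded, rRNA-depleted libraries from random primers (Ovation Solo) and read as 75-base pairs. Before deposit, the authors aligned reads to GRCm38.p6 by STAR 2.5.2b, used the M23 annotation of GenCode and ran RSEM (version not given in the sources used here), which gave the deposited expected counts and TPM values per gene. The authors' own comparisons came from DESeq2 1.32.0, with batch as a term. Whether molecular identifiers were used is likewise not given.

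Here expected counts were rounded to whole numbers (at most 0.000388% of a library's total) and tested with edgeR 4.0.16 in R 4.3.3: filterByExpr with a count minimum of 10, TMM, condition and replicate number as terms, a robust quasi-likelihood fit of all 11 libraries (common biological coefficient of variation 0.258), and Benjamini-Hochberg adjustment over 16252 genes at 0.05. Replicate number stood for the batch term of the methods, which they do not define. CPM use TMM library sizes, and TPM was used for levels between genes. Libraries of 1 group differed from each other beyond sampling noise (chi-square over degrees of freedom of at least 10.2). This ratio was 58.2 to 109 for control pairs with control replicate 1, and 12.04 to 31.4 for the other control pairs. The test was checked on simulated data.

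Positions come from GENCODE M21 on GRCm38. Promoters come from RefSeq, matched by symbol. Named genes are members past adjusted or unadjusted p of 0.05 in any comparison, tested interferon-linked members, the 5 most abundant members, the 2 most abundant of each other group, called genes of the partner lists, and *Pml*. Of the listed genes, 1 is not reported here. *Trim68*, *Trim2* and *Trim43c* were named after their values were seen. The members, lists and rules were chosen with earlier results of these data known. Alternatives were RLE and upper-quartile normalization, no filter or a count minimum of 50, DESeq2 1.42.0, limma-voom (limma 3.58.1), no replicate term, the compared groups alone, summed paralogs, and leaving out each library. Other steps used Python 3.11.15.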

Additional observations from a re-analysis of the deposited data

Results flagged for a closer look

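In the 24 named TRIM genes, 48 groups of 4 libraries were searched for a library far from the other 3 by Dixon's ratio, and 5 were found, where chance gives about 1 in 20. *Trim34a* had 16.6 CPM in control replicate 1, against 4.75 to 5.92 CPM in the other controls. *Trim12a* had 9.70 CPM in that same library, against 0.785 to 2.15 CPM. *Trim44* had 219.9 CPM there, below the 257.8 to 265 CPM of the others. In PD-L1high replicate 1 *Trim9* was low at 13.7 CPM, against 20.0 to 21.0 CPM in the other PD-L1high libraries. *Trim14* was low in PD-L1high replicate 4 at 2.49 CPM, against 6.05 to 6.70 CPM.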

How the results depend on the processing

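Of 1429 values for the 24 named TRIM genes under 20 alternatives, 1419 kept their side of the threshold, 6 lost a call and 4 gained one. No called value changed sign. Among values that were not called, 113 had another sign than the reported one, all with an adjusted p of at least 0.78. The gains are *Trim12a* and *Trim5*, which take the value of the summed counts. *Trim21* and *Trim12c* kept their calls in PD-L1high versus control under all 20 alternatives, with edgeR, DESeq2 or limma-voom adjusted p of at most 0.014 and 0.0028. Leaving out each library in turn gave 2 to 3 TRIM genes higher in PD-L1high versus control, 0 to 0 in PD-L1low versus control and 0 to 1 in PD-L1high versus PD-L1low, with 0 lower in each. DESeq2 and limma-voom gave 3, 0 and 1. It is not established that the replicate numbers pair the libraries: deviations of 10 same-numbered pairs correlated at -0.33 to 0.41, 6 of them over 0.1 (median 0.12), against 7 of 30 differently numbered pairs (median -0.04). Without the replicate block 2 TRIM genes were higher in PD-L1high versus control, 0 in PD-L1low versus control and 1 in PD-L1high versus PD-L1low. Depth limits the members under 1 TPM, and 3 or 4 libraries a group limit the rest.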

Other observations

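The Rnf genes, all protein-coding genes whose symbol is Rnf followed by a digit, were compared after the data had been seen. Of 85 such genes 71 were tested. In PD-L1high versus control 3 were called higher and 0 lower by edgeR, beside 0.941% and 0.0492% of all tested genes. *Rnf213*, a very large ligase known from moyamoya disease in humans, had a log2 fold change of 1.24 (edgeR adjusted p = 0.0027), *Rnf114* of 0.60 (0.024) and *Rnf14* of 0.49 (0.044). DESeq2 and limma-voom each called 4 higher, these 3 and *Rnf19b*, and 0 lower. *Rnf213* had 416, 355, 369 and 278 CPM in PD-L1high libraries, 214, 185 and 107 CPM in PD-L1low libraries, and 290, 110, 154 and 98.7 CPM in control libraries, again with control replicate 1 the highest control. None was called by edgeR in PD-L1high versus PD-L1low, where DESeq2 called 2 and limma-voom 1, or in PD-L1low versus control, where DESeq2 and limma-voom called 0.

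The pseudogene *Trim30e-ps1* and the Trim-like genes *Triml1* and *Triml2*, which the search by symbol leaves out, were at 0 counts in all 11 libraries.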
